A study of Amorphotheca resinae with 20 samples.

Results

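The genes described here are the 46 of 18830 gene identifiers of the fungus Amorphotheca resinae ZN1 whose strongest response to a panel of plant-biomass inhibitors was a low level under both vanillin and syringaldehyde. Mycelia of this wild-type strain were grown at 28 °C and harvested at 4 h, and their RNA gave 20 sequenced libraries. Treated mycelia grew in a potato-dextrose medium containing 1 inhibitor. There were 10 groups with 2 libraries in each. The groups were vanillin, 4-hydroxybenzaldehyde and syringaldehyde at 0.1 g/L each with a control for phenolic aldehydes, furfural and HMF (5-hydroxymethylfurfural) at 1.0 g/L each with a control for furans, and acetic acid at 2.0 g/L and formic acid at 4.0 g/L with a control for weak acids. What the control cultures received is not given in the labels beyond their names. The members were chosen on the ratio R, the log2 of (mean CPM with the inhibitor + 1) over (mean CPM of its own control + 1), where CPM is a gene's count divided by the total of its library, times 1000000. A gene was taken when the lower of R for vanillin and R for syringaldehyde was at most -1.5, the other was at most -1.2, and the R of largest size among all 7 inhibitors belonged to vanillin or syringaldehyde. Without this last condition 54 genes were low under both compounds, and for 8 of these another inhibitor gave a stronger response.

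Vanillin and syringaldehyde are aromatic aldehydes released from lignin when plant biomass is pretreated. Both are substituted 4-hydroxybenzaldehydes: vanillin carries a methoxy group beside the hydroxyl, and syringaldehyde carries a further methoxy group on the other side of it. They are toxic to many microbes that ferment sugars, and fungi that tolerate them commonly reduce the aldehyde group to an alcohol or oxidise it to an acid. The furan aldehydes come from sugars and the weak acids from hemicellulose and sugar breakdown, so the 3 classes differ in origin.

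The count tables give the genes as identifiers (ARZ, a number and a transcript suffix) and do not pair them with names or products. None of the identifiers, 0 of 18830, matched a RefSeq table of 9642 genes from another strain of the species (assembly Amore1), so no function is assigned to any gene and no sequence is shown. Gene lengths are not given either, so levels are compared between groups for the same gene and not between genes. The libraries held 11601181 to 26106956 counts, and the most deeply sequenced, vanillin replicate 1, held the highest number. Nothing in the labels says that the 2 libraries of a group came from separate cultures, so p-values measure the spread between these libraries, which may be technical. Fewer cells expressing a gene and less RNA per cell cannot be told apart in these bulk samples.

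The members were set by the values themselves, so their low levels under vanillin and syringaldehyde are a description and carry no test. R had a median of -1.74 for vanillin (range -6.84 to -1.201) and -1.69 for syringaldehyde (range -6.93 to -1.21). The strongest response was to vanillin in 26 genes and to syringaldehyde in 20. In all 46 genes every vanillin and syringaldehyde library lay below both control libraries, a pattern held by 20.1% of the 17495 genes tested. All 46 were called lower with both compounds by edgeR's quasi-likelihood test at a Benjamini-Hochberg adjusted p under 0.05, against 6.73% of genes tested (10.4% for vanillin alone and 13.2% for syringaldehyde alone); nothing is read from these counts, because the rule used the same contrasts. Mean levels of the members in the phenolic aldehyde control ran from 4.69 to 876 CPM with a median of 51.6. For all genes tested in the phenolic aldehyde experiment the median was 21.9. Shares of all genes tested that are set beside the members are therefore not matched for level, unless this is stated.

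Members ranged from just inside the threshold to far beyond it. Just inside were ARZ_492_T1 (R -1.201 for vanillin and -1.60 for syringaldehyde) and ARZ_4798_T1 (-1.51 and -1.39). Just outside were ARZ_6666_T1 (-1.53 and -1.195) and ARZ_9669_T1 (-1.26 and -1.49). Membership depended on single libraries. Fewest of the 46 were kept without phenolic aldehyde control replicate 2 (33 of the 43 genes found) or syringaldehyde replicate 1 (35 of 42). Without phenolic aldehyde control replicate 1 the rule found 105 genes, of which 40 were among the 46. Without syringaldehyde replicate 2 it found 72, of which 42 were. With a pseudocount of 5 CPM in place of 1 CPM it found 26, of which 24 were among the 46.

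The size of the low levels was also read in libraries that had not chosen the genes. When the rule for the phenolic aldehydes used the libraries numbered 1 only, it chose 77 genes, of which 30 were among the 46 and 47 were other genes, and their median R was -1.56 for vanillin and -1.78 for syringaldehyde. In the libraries numbered 2 the same 77 genes had medians of -1.14 and -1.16, where all genes tested had 0.01 and 0.09. Of the 77, 67 (87.0%) were below 0 for both compounds in these other libraries, against 34.3% of all genes tested, and 35 (45.5%) were at or below -1 for both, against 1.67%. With the roles exchanged, 84 genes were chosen, of which 37 were among the 46, with medians of -1.63 and -1.72 in the choosing libraries and -1.08 and -1.21 in the others, and 34 (40.5%) were at or below -1 for both in the others, against 1.51% of all genes tested. The whole rule was met with the other phenolic aldehyde libraries by 22 of the 77 genes and by 22 of the 84. Its condition on the largest R reused the same furan and weak acid libraries, so these counts do not come from separate libraries alone. In each choice, R for vanillin and R for syringaldehyde also shared a control library. For these lists, which are not the 46 members, the median was nearer to 0 in the libraries that did not choose the genes.

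**Figure D1:**
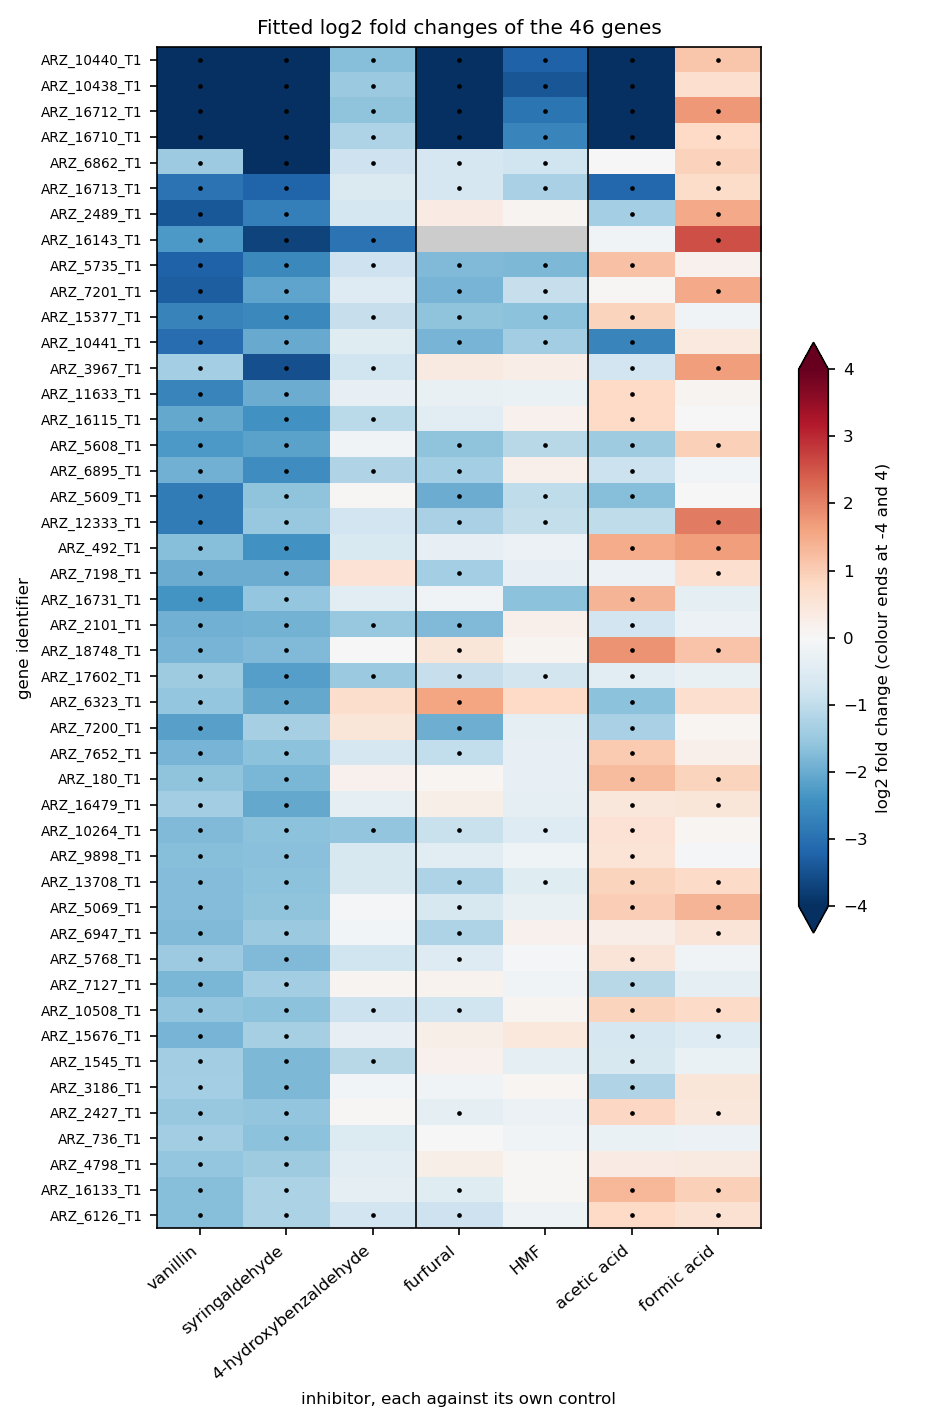
Fitted log2 fold changes (edgeR, colour) of the 46 genes, rows, under each of 7 inhibitors against its own control, columns; dots mark an adjusted p under 0.05, colours end at -4 and 4, and grey marks a gene not tested in the furan table. The vanillin and syringaldehyde columns are blue throughout because they chose the genes; the top 4 rows are also deep blue with furfural and acetic acid, and red or pale red with formic acid.

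The lowest means of R over vanillin and syringaldehyde belonged to 4 genes with a common profile. The lowest single R was that of ARZ_6862_T1 with syringaldehyde (-6.93), a gene with an R of -1.44 for vanillin. ARZ_10438_T1 had 0.192 and 1.16 CPM in the vanillin libraries and 0.946 and 2.30 CPM in the syringaldehyde libraries, against 214 and 168 CPM in the control libraries. With 4-hydroxybenzaldehyde it stood at 66.2 and 68.2 CPM. The vanillin and syringaldehyde libraries were near the limit of detection, and the 4-hydroxybenzaldehyde libraries lay between them and the control without overlap. ARZ_10440_T1 had 0 and 5 reads with vanillin and 3 and 2 reads with syringaldehyde, against 1151 and 1133 reads in the control. Summed over libraries, the rate with vanillin was 481-fold lower (95% exact interval of the reads 206 to 1484, counting error only), where R, which adds 1 CPM, is -5.70.

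ARZ_16710_T1 and ARZ_16712_T1 kept a measurable level. ARZ_16710_T1 had 6.01 and 5.89 CPM with vanillin and 6.92 and 5.97 CPM with syringaldehyde, against 406 and 299 CPM in the control. ARZ_16712_T1 had 2.91 and 2.26 CPM with vanillin and 2.31 and 3.08 CPM with syringaldehyde, against 182 and 141 CPM in the control. Replicates differed by far less than the groups did. For both genes the mean of the phenolic aldehyde control was above those of the other controls. The rule divides by this control and so favours genes with a high value there. Of the 46 members, 29 had a mean in this control above those of both other controls. The share over all genes was not computed. ARZ_16712_T1 had 103 and 109 CPM in the furan control and 86.6 and 121 CPM in the weak acid control.

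The same 4 genes were low with the furans and with acetic acid and not with formic acid. ARZ_16712_T1 had 3.53 and 3.17 CPM with furfural and 11.0 and 16.6 CPM with HMF, against 103 and 109 CPM in the furan control. It had 2.19 and 1.38 CPM with acetic acid, and 342 and 305 CPM with formic acid, against 86.6 and 121 CPM in the weak acid control. The acetic acid libraries were thus below, and the formic acid libraries above, both control libraries. ARZ_16710_T1 had 6.03 and 6.08 CPM with acetic acid and 498 and 382 CPM with formic acid, against 233 and 308 CPM in the control. ARZ_10440_T1 had 0.183 and 0.221 CPM with acetic acid and 124 and 83.2 CPM with formic acid, against 37.0 and 64.5 CPM in the control. ARZ_10438_T1 had 3.47 and 1.22 CPM with acetic acid and 237 and 147 CPM with formic acid, against 107 and 149 CPM in the control, so here the formic acid and control libraries overlapped.

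**Figure D2:**
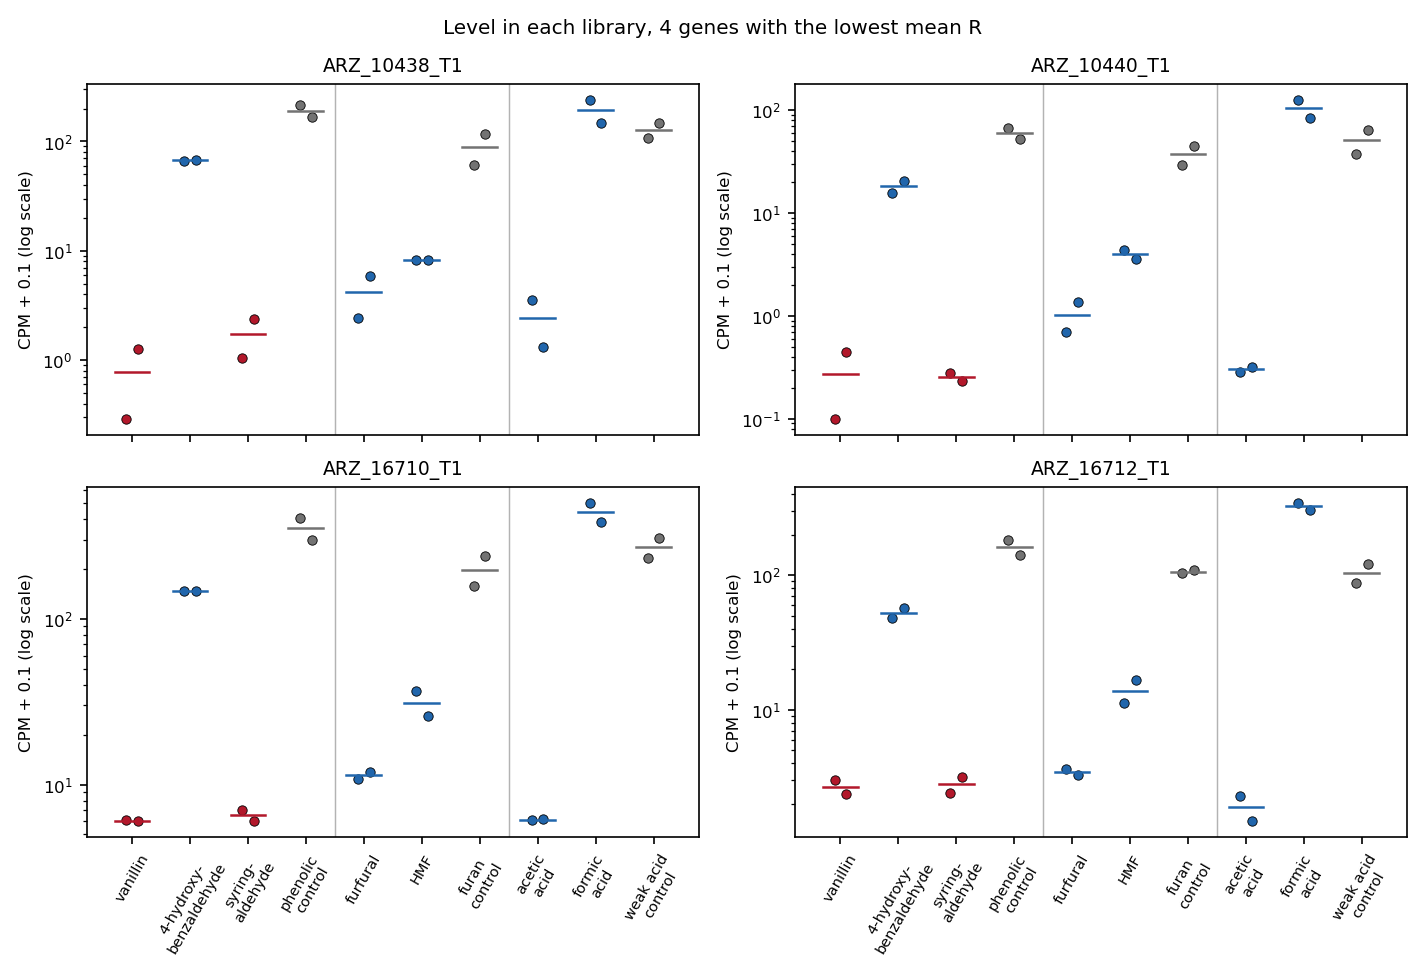
Level of ARZ_10438_T1, ARZ_10440_T1, ARZ_16710_T1 and ARZ_16712_T1 in each of the 20 libraries, as CPM + 0.1 on a log axis; points are libraries, bars group means, red marks vanillin and syringaldehyde, blue the other inhibitors and grey the controls. Vanillin, syringaldehyde, furfural and acetic acid are at the bottom of every panel, HMF and 4-hydroxybenzaldehyde are intermediate, and formic acid is at or above its control.

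Several members had neighbouring identifier numbers. Of the 46 members, 11 (23.9%) had another member within 3 numbers, and of the 18784 other genes 1.26% had a member that near. The 3 runs of members shared one spacing, a number, the number 2 above it and the number 3 above it: 7198, 7200 and 7201; 10438, 10440 and 10441; and 16710, 16712 and 16713. These 9 genes are 19.6% of the members. The skipped number was a gene with few reads in each run: ARZ_7199_T1, ARZ_10439_T1 and ARZ_16711_T1 reached at most 1.29, 0.818 and 2.34 CPM in any library. The genes on either side of the runs had R for vanillin from -0.46 to 0.13, except ARZ_16714_T1 at -1.24. Whether the numbers follow genome position is not stated in the sources used here, and these runs were noticed after the values were seen.

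The runs did not all behave alike. In the runs at 10438 and 16710 the last gene was lowered less than the others: ARZ_10441_T1 had 1.49 and 1.44 CPM with vanillin and 1.66 and 4.39 CPM with syringaldehyde, against 15.02 and 9.25 CPM in the control. ARZ_16713_T1 had 3.14 and 3.35 CPM with vanillin and 2.31 and 3.02 CPM with syringaldehyde, against 28.0 and 21.6 CPM in the control. In the run at 7198 all 3 genes kept several CPM: ARZ_7198_T1 had 17.4 and 17.4 CPM with vanillin and 21.4 and 11.9 CPM with syringaldehyde, against 75.5 and 59.4 CPM in the control. With 4-hydroxybenzaldehyde ARZ_7198_T1 had 115 and 82.4 CPM, above both control libraries, and its fitted change did not pass the test.

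A pair of adjacent numbers, ARZ_5608_T1 and ARZ_5609_T1, was in part like the run at 7198. Over the 20 libraries the log2(CPM + 1) of ARZ_5609_T1 followed that of ARZ_7200_T1 more closely than any other gene's (Pearson r 0.962), and ARZ_7198_T1 was closest to ARZ_5608_T1 (0.887). With each experiment's mean removed, ARZ_5609_T1 was still closest to ARZ_7200_T1 (0.965), but ARZ_5608_T1 was closest to ARZ_16710_T1 (0.9497) and ARZ_7198_T1 to ARZ_5610_T1 (0.923). ARZ_7201_T1 was closest to non-members on both scales. The libraries share controls and experiments, so these r values describe likeness only. ARZ_5610_T1, the next number, was no member, with R of -1.199 for vanillin and -1.13 for syringaldehyde. How reads were divided among near-identical genes is not stated, so the levels of genes that may be copies of each other are uncertain.

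Vanillin and syringaldehyde, which differ by a methoxy group, were compared directly at the same dose by mass. The rule sets no limit on this difference, but it selected on both of the values compared. A difference was called in 5 of 46 genes, 3 higher and 2 lower with vanillin than with syringaldehyde, where 2.84% and 1.90% of the 17495 genes tested were called. ARZ_6862_T1 stood at 327 and 302 CPM with vanillin and at 4.91 and 7.21 CPM with syringaldehyde, and the control libraries had 1063 and 653 CPM. The log2 difference between vanillin and syringaldehyde was 5.68 ± 0.28 (SE; edgeR quasi-likelihood adjusted p = 5.66e-08). ARZ_3967_T1 had 18.0 and 16.4 CPM with vanillin and 4.02 and 3.54 CPM with syringaldehyde, while its control libraries had 42.1 and 45.4 CPM. Vanillin minus syringaldehyde was 2.15 ± 0.21 on the log2 scale (edgeR adjusted p = 3.77e-05). For both genes vanillin left an intermediate level and the syringaldehyde libraries lay below it without overlap.

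The opposite order was seen in ARZ_12333_T1 and ARZ_7201_T1. ARZ_12333_T1 had 136 and 111 CPM with vanillin and 384 and 197 CPM with syringaldehyde, while its control libraries had 795 and 904 CPM. Vanillin minus syringaldehyde was -1.29 ± 0.30 (log2, edgeR adjusted p = 0.0265). ARZ_7201_T1 had 4.18 and 5.61 CPM with vanillin and 12.5 and 8.79 CPM with syringaldehyde, while its control libraries had 38.2 and 55.4 CPM. Vanillin minus syringaldehyde was here -1.18 ± 0.28 (log2, edgeR adjusted p = 0.0277). The calls of both were lost without vanillin replicate 1 (edgeR adjusted p = 0.175 and 0.292), vanillin replicate 2 (0.225 and 0.0836) or syringaldehyde replicate 1 (0.0891 and 0.120), and that of ARZ_7201_T1 with only these groups in the fit (0.0924). For ARZ_12333_T1 the difference itself was -0.62 without syringaldehyde replicate 1, and -1.42 and -1.16 without vanillin replicate 1 or 2. The fifth gene, ARZ_16479_T1, named because so few were called, was higher with vanillin by 0.66 ± 0.16 (edgeR adjusted p = 0.0360). Its call was lost without the same libraries (0.148, 0.184 and 0.0920) and with only these groups in the fit (0.108).

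For the other genes a difference between vanillin and syringaldehyde was not shown. The 95% interval stayed inside 2-fold either way in 27 of 46 genes and lay wholly beyond 2-fold in 2. The shares over all genes were not computed, so these counts are a description. ARZ_16710_T1 had a log2 difference of -0.15 (interval -0.59 to 0.30) and ARZ_16712_T1 one of -0.05 (interval -0.58 to 0.48). ARZ_10440_T1 had so few reads that its interval ran from -2.70 to 2.05. The count of 5 was 2 without vanillin replicate 1, 3 without vanillin replicate 2, 12 without syringaldehyde replicate 2, 3 with only these groups in the fit and 8 with DESeq2. The compounds were dosed at equal mass, so their molar doses differed.

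**Figure D3:**
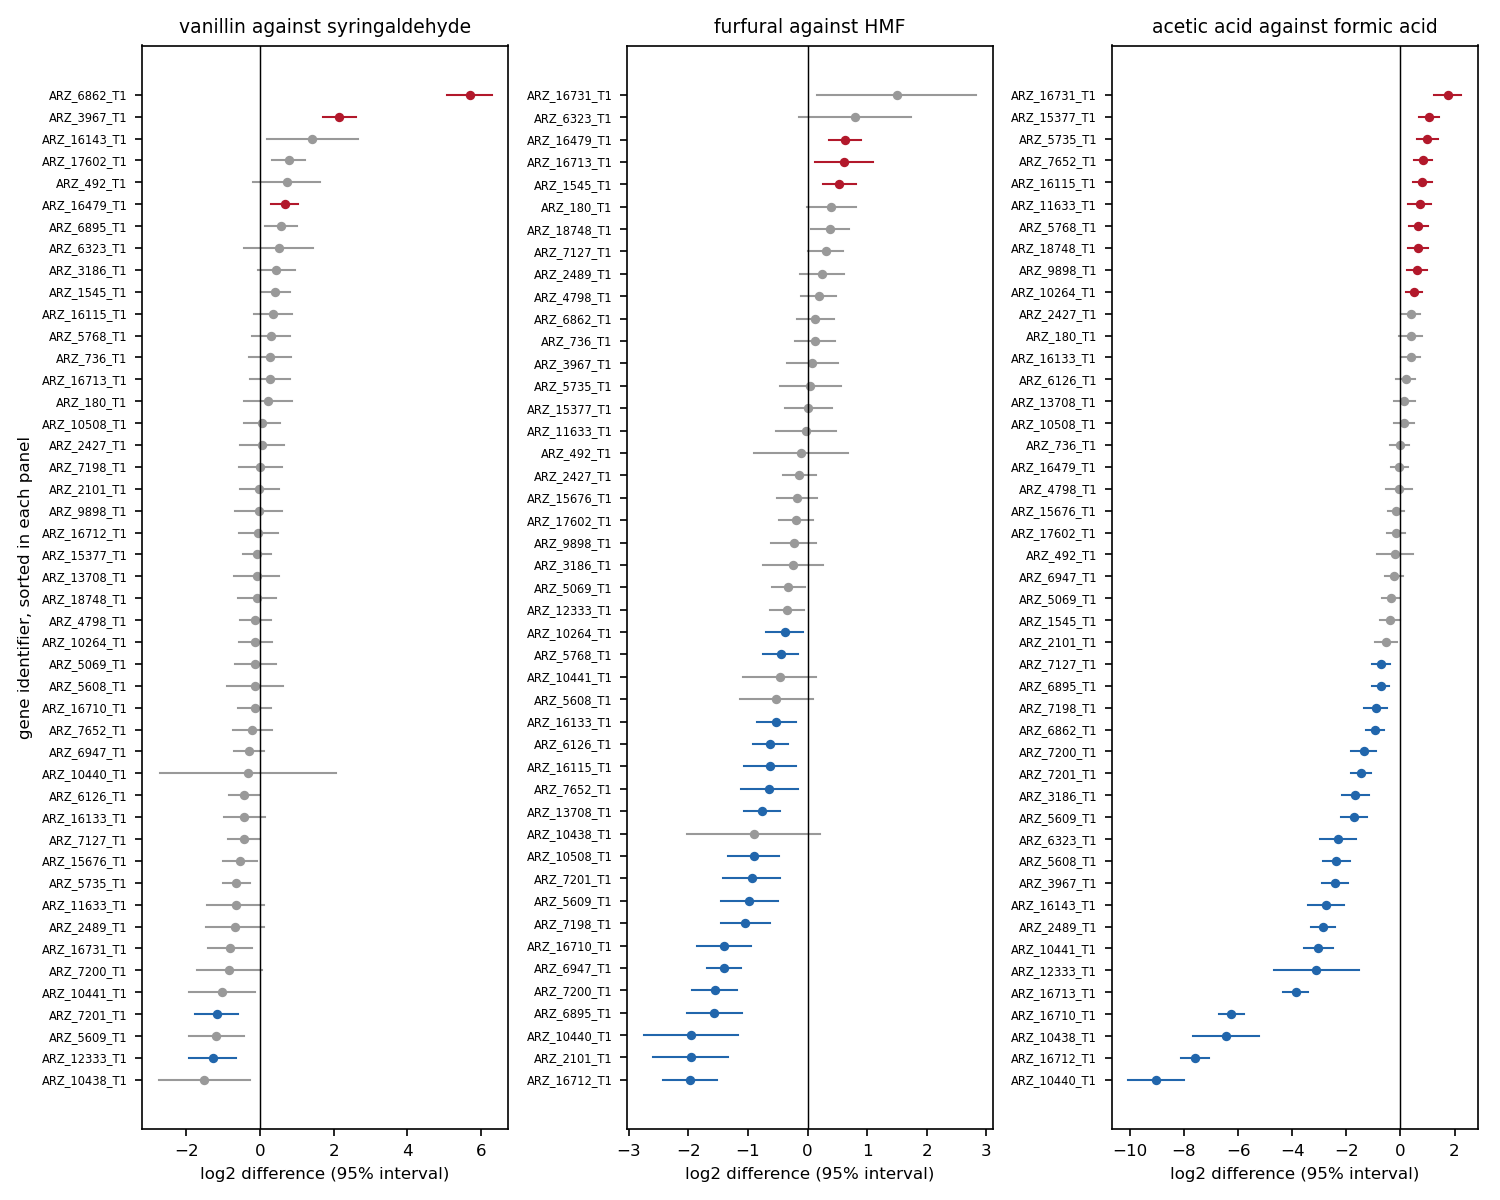
Log2 differences (points) with 95% intervals (lines) for vanillin against syringaldehyde, furfural against HMF, and acetic acid against formic acid, for each member tested, sorted within each panel; red is called higher and blue called lower for the first compound, grey is not called. ARZ_6862_T1 and ARZ_3967_T1 stand to the right in the first panel, 18 of 45 genes are blue in the second, and 4 genes lie below -6 in the third.

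With 4-hydroxybenzaldehyde, the unsubstituted parent compound, the members were lowered less. Their fitted log2 fold changes had a median of -0.62 (range -2.95 to 0.70), where all genes tested had 0.01. Of the 46, 17 were called lower (37.0%, against 5.0% of genes tested) and 0 higher (3.11% of genes tested) by edgeR, as with DESeq2, with 1 higher at an unadjusted p under 0.05. The rule used the size of this contrast and the same control libraries, so nothing is read from that share. Without either 4-hydroxybenzaldehyde library the number of genes called lower was 5. Compared directly, 38 genes were lower with vanillin than with 4-hydroxybenzaldehyde (8.62% of genes tested) and 41 were lower with syringaldehyde (11.1%), which follows from how the genes were chosen.

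Members differed in how far 4-hydroxybenzaldehyde moved them. ARZ_17602_T1, among the members with the most reads in the control, had 327 and 332 CPM with vanillin, 302 and 315 CPM with 4-hydroxybenzaldehyde and 209 and 167 CPM with syringaldehyde, against 761 and 991 CPM in the control. All 3 compounds lowered it, and vanillin minus 4-hydroxybenzaldehyde was 0.05 on the log2 scale (interval -0.39 to 0.50). ARZ_18748_T1 had 75.3 and 48.4 CPM with vanillin, 218 and 213 CPM with 4-hydroxybenzaldehyde and 58.1 and 71.7 CPM with syringaldehyde, against 168 and 276 CPM in the control. Here the 4-hydroxybenzaldehyde libraries lay between the control libraries.

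In the furan experiment, whose libraries and control are separate, the members were lower more often than higher. Of 45 genes tested, furfural was called lower in 28 (62.2%, against 16.9% of genes tested) and higher in 2 (17.4% of genes tested). HMF was called lower in 16 (35.6%, against 3.45%) and higher in 0 (5.0% of genes tested) by edgeR. DESeq2 also called 0 higher, and 1 was higher at an unadjusted p under 0.05. The median log2 fold change was -0.68 with furfural and -0.32 with HMF, where all genes tested had -0.01 and 0.00. The rule capped the size of these contrasts without setting their sign, and the shares, not matched for level, are given as a description. All 16 genes called lower with HMF were also called lower with furfural, so 35.6% of the 45 members were called lower with both, against 1.85% of genes tested; the contrasts share their control. ARZ_16143_T1 had too few reads to be tested here, at most 0.533 CPM in any furan library.

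Furfural and HMF, at the same dose by mass, were compared directly. The rule does not use this difference, but it capped the size of R for both compounds, so the counts are a description. Of 45 genes, 18 were lower with furfural than with HMF and 3 higher, where 17.0% and 17.2% of genes tested were called. Among genes with at least 10 CPM in the phenolic aldehyde control the shares were 22.5% lower and 18.8% higher over all such genes. ARZ_16712_T1 differed by -1.98 ± 0.22 on the log2 scale (edgeR adjusted p = 4.18e-07), from the libraries given above. ARZ_2101_T1 had 1.81 and 2.44 CPM with furfural and 9.61 and 7.79 CPM with HMF, a log2 difference of -1.96 ± 0.30 (edgeR adjusted p = 3.20e-05). Its furan control libraries had 7.73 and 7.54 CPM, so furfural lay below the control and HMF just above it.

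ARZ_6895_T1, the gene whose levels followed ARZ_2101_T1 most closely (r 0.932 over 20 libraries), had 5.34 and 7.38 CPM with furfural and 20.3 and 19.2 CPM with HMF, against 19.3 and 15.2 CPM in the furan control. The genes higher with furfural than with HMF were ARZ_16479_T1, ARZ_16713_T1 and ARZ_1545_T1, named because there were so few, with log2 differences of 0.62, 0.61 and 0.54. Without furfural replicate 2 only 1 gene was called higher and 12 lower. The higher calls lost were ARZ_16713_T1 (edgeR adjusted p = 0.319), whose call was also lost without each of the other furfural and HMF libraries (0.0545 to 0.178), and ARZ_1545_T1 (0.0585).

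A few members went the other way with furfural. ARZ_6323_T1 had 18.4 and 21.4 CPM with furfural, against 3.05 and 11.0 CPM in the furan control, a log2 fold change of 1.59 ± 0.44. The control libraries were far apart, and the fold change was 0.92 without furan control replicate 1 and 2.78 without replicate 2. The call was lost with no filter on low counts, with only these groups in the fit and with DESeq2 (adjusted p = 0.0600, 0.0663 and 0.0780). ARZ_18748_T1 had 168 and 233 CPM with furfural, against 136 and 167 CPM in the control, a log2 fold change of 0.49 ± 0.15. Its call was lost without furfural replicate 2 (edgeR adjusted p = 0.457) or furan control replicate 1 (0.207).

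The weak acids separated the members. Acetic acid was called lower in 19 of 46 genes (41.3%, against 18.3% of genes tested) and higher in 19 (19.7% of genes tested). Formic acid was called lower in 1 (18.8% of genes tested) and higher in 23 (50.0%, against 20.9%), a count that was 15 without formic acid replicate 1. The median log2 fold change was -0.08 with acetic acid and 0.50 with formic acid, where all genes tested had -0.01 with each. Both contrasts share the weak acid control and entered the rule by size, so the shares are a description. Called higher with both acids were 10 genes (21.7%, against 11.7% of genes tested). Called lower with acetic acid and higher with formic acid were 7 (15.2%, against 0.724%). Among these, ARZ_3967_T1 had a log2 fold change of only -0.75 with acetic acid. It was -0.43 without weak acid control replicate 2 and -0.45 without acetic acid replicate 2.

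The direct comparison of acetic acid with formic acid, at different doses (2.0 and 4.0 g/L), is not used by the rule. The rule capped the size of R for both acids, so the counts are a description. Of 46 genes, 20 (43.5%) were lower with acetic acid than with formic acid and 10 (21.7%) higher, where 13.3% and 11.8% of genes tested were called. Among genes with at least 10 CPM in the phenolic aldehyde control, 16.1% were lower and 12.1% higher. The 95% interval lay wholly beyond 2-fold in 16 genes, and the share over all genes was not computed, so this count is a description. For ARZ_16712_T1 it was -7.58 ± 0.25 (edgeR adjusted p = 1.55e-12), and for ARZ_16710_T1 -6.25 ± 0.22 (edgeR adjusted p = 2.64e-12). ARZ_10440_T1 had 3 and 4 reads with acetic acid and 2511 and 1534 reads with formic acid, a 517-fold lower rate with a 95% counting interval of 251 to 1286. The 6 genes of the runs at 10438 and 16710 were all lower with acetic acid than with formic acid, the smallest difference being -3.03 ± 0.25 for ARZ_10441_T1.

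The number of genes higher with acetic acid than with formic acid was 5 without acetic acid replicate 2, formic acid replicate 1 or formic acid replicate 2. ARZ_16731_T1 had 10.4 and 15.1 CPM with acetic acid and 3.57 and 3.69 CPM with formic acid, a log2 difference of 1.74 ± 0.24 (edgeR adjusted p = 6.57e-05), and its control libraries had 5.31 and 4.68 CPM. ARZ_15377_T1 had 935 and 928 CPM with acetic acid and 435 and 424 CPM with formic acid, a log2 difference of 1.04 ± 0.18 (edgeR adjusted p = 0.000401). Its weak acid control libraries had 419 and 589 CPM, so acetic acid lay above the control and formic acid overlapped it.

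ARZ_15377_T1 belonged to a set of 3 genes with similar profiles, noticed after the values were seen. With ARZ_5735_T1 and ARZ_7652_T1 its log2(CPM + 1) over the 20 libraries had r of 0.994 and 0.980, and of 0.976 and 0.913 after each experiment's mean was removed. In the phenolic aldehyde experiment ARZ_15377_T1 had 23.9 and 25.9 CPM with vanillin and 22.2 and 29.9 CPM with syringaldehyde, against 179 and 135 CPM in the control. ARZ_5735_T1 had 14.9 and 13.4 CPM with vanillin and 22.3 and 21.1 CPM with syringaldehyde, against 149 and 115 CPM in the control. In the furan experiment ARZ_15377_T1 had 31.8 and 33.2 CPM with furfural and 36.5 and 30.6 CPM with HMF, against 132 and 79.0 CPM in the control, so both furans lay below the control. Furfural minus HMF was 0.01 on the log2 scale (interval -0.38 to 0.41). HMF separated the set: against the furan control it was called lower in ARZ_15377_T1 (log2 fold change -1.63) and ARZ_5735_T1 (-1.81) and not in ARZ_7652_T1 (-0.33, edgeR adjusted p = 0.374). The HMF call of ARZ_5735_T1 was lost without HMF replicate 3 (log2 fold change -1.64, edgeR adjusted p = 0.104). ARZ_7652_T1 had 7.50 and 6.79 CPM with furfural and 11.5 and 11.8 CPM with HMF, against 16.7 and 12.9 CPM in the furan control. Its furfural minus HMF was -0.64 ± 0.23 (log2, edgeR adjusted p = 0.0339), a call lost without any 1 of the furfural or HMF libraries (0.0713 to 0.195) and with DESeq2 (0.0527). ARZ_5735_T1 had 1013 and 912 CPM with acetic acid, against 364 and 497 CPM in the weak acid control. ARZ_7652_T1 had 105 and 99.98 CPM with acetic acid, against 42.0 and 58.9 CPM in that control. The set thus combined low levels with vanillin, syringaldehyde and furfural with high levels under acetic acid, whereas the 4 genes with the lowest mean R were low with acetic acid.

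**Figure D4:**
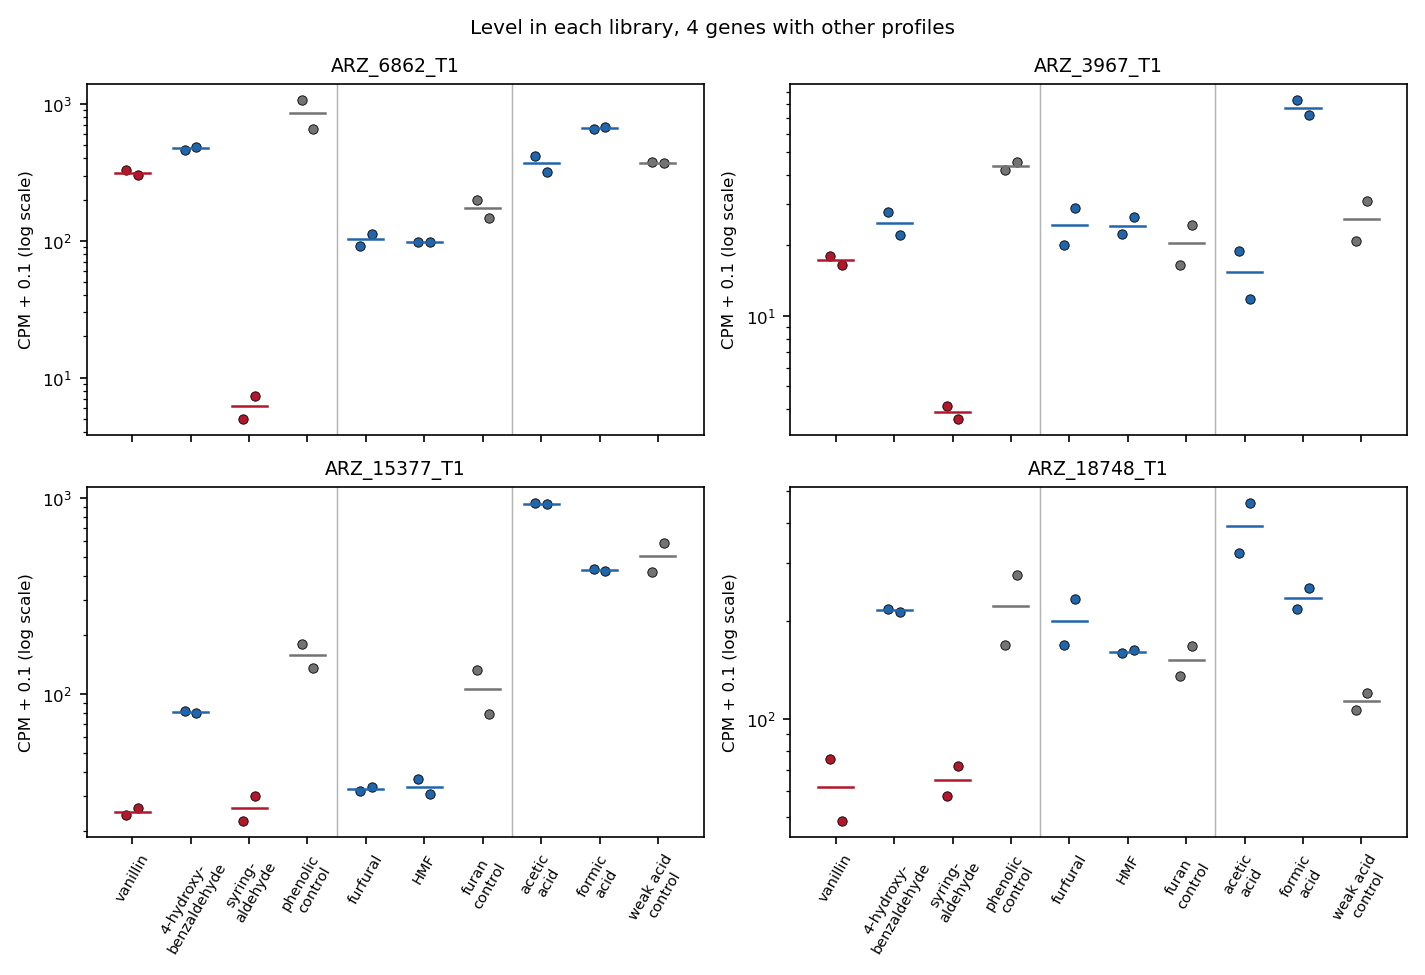
Level of ARZ_6862_T1, ARZ_3967_T1, ARZ_15377_T1 and ARZ_18748_T1 in each of the 20 libraries, as CPM + 0.1 on a log axis; points are libraries, bars group means, red marks vanillin and syringaldehyde, blue the other inhibitors and grey the controls. ARZ_6862_T1 and ARZ_3967_T1 drop further with syringaldehyde than with vanillin, and ARZ_15377_T1 and ARZ_18748_T1 are higher with acetic acid than in the weak acid control.

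Other members were also higher with an acid than in the control. ARZ_18748_T1 had 323 and 459 CPM with acetic acid and 217 and 253 CPM with formic acid, against 106 and 120.5 CPM in the control, so it was higher with both (log2 fold changes 1.80 ± 0.18 and 1.14 ± 0.18). ARZ_3967_T1 had 83.1 and 71.9 CPM with formic acid, against 20.8 and 30.7 CPM in the control, a log2 fold change of 1.67 ± 0.21. ARZ_12333_T1 had 1181 and 1319 CPM with formic acid, against 235 and 393 CPM in the control, a log2 fold change of 2.08 ± 0.56. Its call was lost without any 1 of the formic acid or control libraries (edgeR adjusted p = 0.0560 to 0.232), with no filter on low counts (0.0722) and with the replicate block (0.0816). The gene called lower with formic acid was ARZ_15676_T1, at 79.8 and 70.5 CPM with formic acid against 109 and 119 CPM in the control, a log2 fold change of -0.51 ± 0.14 whose call was lost without formic acid replicate 2 (edgeR adjusted p = 0.108).

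Among the 45 genes tested with all of the other 5 inhibitors, no combination of calls held more than 3 genes. Called lower with furfural, HMF and acetic acid were 9 genes (0.536% of genes tested in both tables): the 6 genes of the runs at 10438 and 16710, ARZ_5608_T1, ARZ_5609_T1 and ARZ_17602_T1. The acetic acid call of ARZ_17602_T1 was lost without acetic acid replicate 1 (edgeR adjusted p = 0.189) or weak acid control replicate 1 (0.103), and the HMF call of ARZ_10438_T1 without either HMF library (0.209 and 0.121). Called lower with furfural and higher with acetic acid were 11 of 45 genes (24.4%, against 4.16% of genes tested in both tables). Called with none of the other 5 inhibitors against control were 2 genes, ARZ_736_T1 and ARZ_4798_T1, where 29.0% of the genes tested in all tables were called with none. ARZ_736_T1 had 11.2 and 10.4 CPM with vanillin and 5.62 and 12.4 CPM with syringaldehyde, against 26.4 and 29.2 CPM in the control, and 22.6 to 34.5 CPM in every library of the furan and weak acid experiments. With 4-hydroxybenzaldehyde it had 19.5 and 18.0 CPM, below both control libraries (log2 fold change -0.54, interval -1.08 to -0.01), and ARZ_4798_T1 had 74.3 and 80.3 CPM, against 117 and 99.4 CPM in the control (-0.46, interval -0.88 to -0.04). Neither passed the adjusted test (edgeR adjusted p = 0.190 and 0.159). Of the 45 members tested in all tables, 9 were called lower with none of the other 5 inhibitors, against 56.6% of all genes tested there, and 32 (71.1%) were called higher with at least 1, against 43.3%. The rule used the size of these contrasts, so the shares are a description.

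Members followed each other over the libraries to varying degrees. The Pearson r of log2(CPM + 1) over the 20 libraries between pairs of members had a median of 0.50 (quartiles 0.32 and 0.65) and was at least 0.9 in 30 of 1035 pairs. For 16 of 46 genes the most similar gene of all was also a member. ARZ_6862_T1 was closest to ARZ_2067_T1 (r 0.989), which had R of -6.04 for syringaldehyde and -0.80 for vanillin and so was no member. ARZ_2067_T1 had 327 and 386 CPM with vanillin and 5.20 and 11.8 CPM with syringaldehyde, against 782 and 463 CPM in the control. The rule makes members alike in the phenolic aldehyde libraries, so these values describe the set and test nothing.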

How the data were processed

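RNA of mycelia was sequenced with an Ion Proton kit after Trizol extraction, per the labels' protocols. The deposited values are whole-number read counts per gene identifier, 1 table per experiment, which the authors did not normalize. For the aligner, the counting program and the gene models the sources used here give nothing. The build in the submitters' processing notes, Sscrofa 10.2, is a pig assembly and does not go with these identifiers.

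CPM used column sums. Each table was fitted with all its groups in edgeR 4.0.16 (R 4.3.3): filterByExpr, TMM scaling, robust quasi-likelihood F-tests, two-sided, Benjamini-Hochberg over the 16398 (furans), 17495 (phenolic aldehydes) or 16714 (weak acids) genes tested, called at an adjusted p under 0.05. Levels are per library and n = 2 per group; fold changes are given with SE. Of the members, 46, 45 and 46 passed the filter in the phenolic aldehyde, furan and weak acid tables. For a gene at 20 reads or fewer in a group, summed reads were compared with exact intervals. Totals of 11601181 to 26106956 counts limit the precision of low genes.

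The alternatives comprised no filter, scaling by median of ratios, at least 10 CPM in 2 libraries, DESeq2 1.42.0, only the 2 groups compared, a replicate block, each library left out (assuming that a group's lone library varies as the others do) and, for the rule, pseudocounts of 0.25 and 5 and TMM library sizes. Named genes were the 2 with the lowest mean R, the 2 with the most CPM in the phenolic aldehyde control and, with at least 10 CPM there, the largest called changes of at least 2-fold without overlap, 2 per direction in direct comparisons and 1 per direction against controls; other genes are named after their values were seen. The members and lists were chosen with earlier results of these data known. No gene function list could be applied. Figures were drawn with matplotlib 3.10.9.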

Additional observations from a re-analysis of the deposited data

How the results depend on the processing

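With 2 libraries per group, single libraries decide calls near the threshold, and genes at a few reads have wide intervals. The number of genes found by the rule was 26 with a pseudocount of 5, 66 with 0.25 and 47 with TMM library sizes, and 42 to 105 when 1 library was left out. Leaving out 1 library gave 5 to 13 genes called with 4-hydroxybenzaldehyde, 2 to 12 for vanillin against syringaldehyde and 13 to 19 for furfural against HMF. For vanillin against syringaldehyde the count was 3 with only these groups in the fit and 8 with DESeq2. The causes were not tested. Other counts of genes called, both directions summed, stayed within 1.5 times under the alternatives run. By direction, leaving out 1 library gave 5 to 11 genes higher with acetic than with formic acid (10 with all libraries), 15 to 23 higher with formic acid than in its control (23 with all) and 1 to 3 higher with furfural than in its control (2 with all). Replicate numbers are shared between groups, but differences between libraries 1 and 2 of a group correlated by only -0.07 to 0.11 across groups, so the numbers are not taken to pair the libraries. With a replicate block 6 genes were called for vanillin against syringaldehyde, 16 with 4-hydroxybenzaldehyde and 30 for acetic against formic acid. With furfural 33 genes were called in a block fit that also left out the HMF libraries. No paired analysis was possible for HMF because its libraries carry the numbers 3 and 4.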
